A study of Mus musculus with 5 samples.

Results

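Of the CREB regions of the mouse fetal testis that lie at the end of a protein-coding gene, 1321 held a CREB peak at the embryonic stages E16.5 and E18.5 while lacking one at E13.5. Members were chosen by merging the 3 deposited CREB peak lists wherever peaks overlapped by at least 1 bp on the assembled chromosomes. Regions with peaks of the 2 later stages alone were then kept if they reached within 1000 bp, to either side, of an annotated end of a protein-coding gene. They made up 32.3% of all 4092 merged CREB regions and 43.3% of the 3051 regions at a gene end. The 1321 regions touched the ends of 1613 genes, which is 7.37% of the 21887 protein-coding genes. The peaks themselves chose the members, so their presence at E16.5 and E18.5 and their lack of an E13.5 peak are a description and not a result.

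The series used CUT&RUN, where a nuclease tethered to an antibody cuts out the DNA that the antibody's target occupies. Each assay used 100000 dissociated cells of male gonads. CREB was assayed at these 3 stages, given in days of gestation, and an H3K4 mark, whose methylation state the labels do not give, at E18.5. No genotype, strain or treatment is given for any group, and the cells are a mixture of all cell types of the gonad. Each stage and antibody had 1 library, and no value therefore has a replicate check. The IgG library of the series was not analysed here. There were 862, 3528 and 2957 CREB peaks in order of stage and 21211 H3K4 peaks, with nearly fixed widths of 150, 630, 160 and 210 bp. The read depth is unknown, and intervals given with shares are 95% Wilson intervals, which cover counting error only.

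CREB is a transcription factor of the bZIP family that is phosphorylated by protein kinase A when cAMP rises. It binds the palindromic cAMP response element (CRE), TGACGTCA, and more weakly a single copy of its core, TGACG. Many CRE-bearing promoters serve genes that every cell uses. In the testis, cAMP is the second messenger of the gonadotropin receptors of Leydig and Sertoli cells.

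The first stretches show the complete CRE as it stands in promoters of members, and were picked for holding it. The stretches below come from the RefSeq promoter windows on GRCm38.p6, the assembly behind mm10, which run from 250 bp before a start to 50 bp after it. They belong to the 12 CRE-bearing member genes that came earliest in the peak lists, and to Btg2 and Hlf, which were added after the matches were seen. Capitals mark the CRE, and each stretch is written 5′ to 3′ on the strand of the gene.
Tyw1, chr5:130255594-130255623, plus strand: tcgttctgtgaTGACGTCAtttacaggcgc
Celf6, chr9:59578087-59578157, plus strand: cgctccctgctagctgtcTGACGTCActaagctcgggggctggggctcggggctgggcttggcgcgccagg
Snrpa, chr7:27196366-27196395, minus strand: ccaggaggaaaTGACGTCAcccggccagcc
Zfp868, chr8:69625185-69625214, minus strand: cagtacgcggaTGACGTCAcgatccgggct
Aplf, chr6:87672350-87672379, minus strand: tcctaaggcctTGACGTCAgcactactcta
Nr6a1, chr2:38926412-38926437, minus strand: gcagcggcgcgTGACGTCAgaggagg
Ralgapa1, chr12:55821211-55821240, minus strand: tcacgctgacaTGACGTCAcgagcacttga
Rpl13, chr8:123102281-123102349, plus strand: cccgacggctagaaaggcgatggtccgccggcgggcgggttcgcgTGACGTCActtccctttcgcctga
Mcm5, chr8:75109365-75109462, plus strand: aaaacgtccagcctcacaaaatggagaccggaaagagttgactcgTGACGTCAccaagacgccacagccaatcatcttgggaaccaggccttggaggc
Rab11fip3, chr17:26069550-26069579, minus strand: acacggcgtgcTGACGTCAcgcgcgacgga
Rpl27a, chr7:109519053-109519150, plus strand: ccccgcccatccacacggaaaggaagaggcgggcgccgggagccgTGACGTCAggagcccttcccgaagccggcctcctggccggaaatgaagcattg
Ccdc86, chr19:10949267-10949334, minus strand: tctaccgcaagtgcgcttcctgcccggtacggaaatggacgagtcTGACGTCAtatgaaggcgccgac
Btg2, chr1:134079269-134079366, minus strand: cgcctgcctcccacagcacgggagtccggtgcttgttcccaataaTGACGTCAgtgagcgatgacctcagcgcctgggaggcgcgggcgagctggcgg
Hlf, chr11:90390918-90390971, minus strand: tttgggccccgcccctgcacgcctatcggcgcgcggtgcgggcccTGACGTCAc

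These CREs lay upstream of the listed start in all but Nr6a1, where the first base of the element stood 35 bp after it. The element began 14 bp before the start of Tyw1, which modifies a transfer RNA, 99 bp before that of Mcm5, a subunit of the replicative helicase, and 24 bp before that of the ribosomal protein gene Rpl13. It began 9 bp before the start of Hlf, a bZIP factor of the circadian output, and 166 bp before that of Btg2, an antiproliferative gene that cAMP is known to induce. The Ralgapa1 windows together held 3 separate CREs, of which the one nearest the region's centre is shown. The stretch of Snrpa, a spliceosomal protein gene, lies inside the divergent neighbour BC024978, that of Aplf inside the noncoding gene E230015B07Rik, and those of Tyw1, Zfp868, Nr6a1, Ralgapa1 and Rab11fip3 inside the outer bounds of their own gene. The gene table gives no exons, so whether these 7 stretches are exonic is not stated.

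Other members of interest had only the core of the element upstream of their start. The next stretches show Rgs2, a regulator of G protein signalling, Cyp51, the lanosterol demethylase of cholesterol synthesis, and Prkaca, the catalytic subunit of protein kinase A, all chosen after their matches were seen. Capitals mark the core, which reads CGTCA on the opposite strand.
Rgs2, chr1:144004192-144004354, minus strand: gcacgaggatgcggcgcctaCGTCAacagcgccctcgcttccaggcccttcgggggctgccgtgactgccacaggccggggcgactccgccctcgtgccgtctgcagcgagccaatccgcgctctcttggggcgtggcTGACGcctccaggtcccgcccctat
Cyp51, chr5:4104781-4104825, minus strand: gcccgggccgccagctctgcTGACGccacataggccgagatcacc
Prkaca, chr8:83972838-83972977, plus strand: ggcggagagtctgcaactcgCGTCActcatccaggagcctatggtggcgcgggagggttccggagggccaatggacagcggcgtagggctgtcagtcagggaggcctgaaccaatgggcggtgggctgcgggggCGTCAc

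Rgs2 and Prkaca each held 2 cores before the start, and Cyp51 held 1. The windows of Creb1, which encodes CREB itself, of Xbp1, an effector of the unfolded protein response, and of Dbp, a bZIP factor of the circadian output, held no match to the core.

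**Figure D1:**
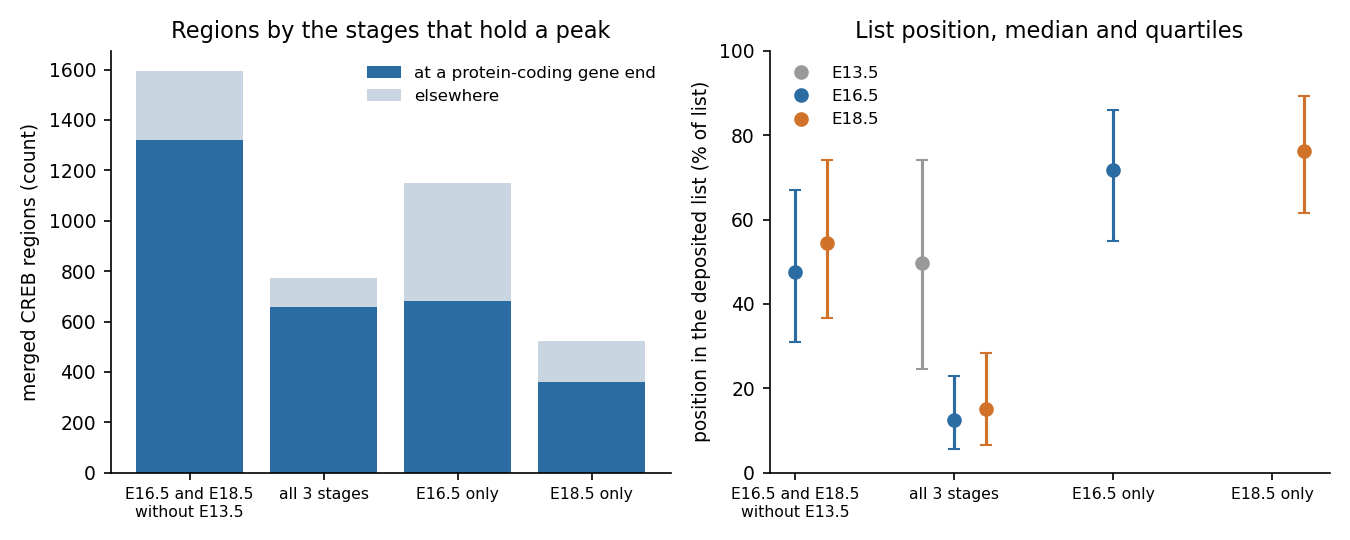
Left, number of merged CREB regions by the stages that hold a peak, divided into those at a protein-coding gene end and those elsewhere; right, median position of the gene-end regions in each deposited list as a percentage of the list, with lines from the lower to the upper quartile. The regions of E16.5 and E18.5 without E13.5 are the most numerous class (1321 at a gene end), and their medians of 47.6% and 54.5% lie between those of regions of all 3 stages and those of a single stage.

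The regions were compact and the peaks of both stages sat nearly on top of each other. The rule joins only overlapping peaks, and their widths are nearly fixed at 630 and 160 bp. The rule and widths thus bound the region widths, the nesting and the midpoint distances, which are given as description. In 1307 regions there were 2 peaks, 1 per stage, and in 14 there were 3. In 1239 regions (93.8%) an E18.5 peak lay wholly inside the E16.5 peak, and 1230 regions were exactly 630 bp wide, the width of an E16.5 peak. Midpoints of the 2 stages were a median of 46 bp apart, with quartiles of 17 and 88.5 bp. The widest regions were those at Cfap46 (890 bp) and Nampt (813 bp), each of 3 peaks, followed by H13 (789 bp), Fem1a (786 bp) and Spag9 (786 bp). Of the 1595 merged regions with this stage pattern, 82.8% lay at a protein-coding gene end (80.9 to 84.6). The share was 85.1% for regions of all 3 stages, 59.4% for E16.5 alone (56.5 to 62.2) and 68.8% for E18.5 alone (64.7 to 72.7).

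Most members stood clear of any E13.5 peak, as description only, since the rule bars an overlap and the E13.5 list held 862 peaks. The gap to the nearest one had a median of 445630 bp, 23 regions had an E13.5 peak within 10000 bp and 1 had one within 1000 bp. That region lay between the histone genes H2bc9 and H3c7, 99 bp from a peak of E13.5 that overlapped another E18.5 peak. Next came H2-Ab1, a class II histocompatibility gene, at 1033 bp and Ing1, a chromatin regulator, at 2015 bp. On the other side of the rule, the regions of all 3 stages with the least overlap with an E13.5 peak were Letm2 (34 bp), Sox12 (57 bp) and Cdc45 with Ufd1 (71 bp). At the limit of the gene-end window, the regions of Tsga10, Tmem230 and Wdr62 were just inside at gaps of 1000, 994 and 986 bp from the outer gene end, and those of Usp49, Msantd2 and Borcs6 just outside at 1013, 1017 and 1030 bp.

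The E13.5 list was the shortest, and how its length bears on the choice of members was not tested. The files do not say what the order of peaks in a list means; it follows neither position nor width. Members stood in the middle of both later lists, with a median position of 47.6% of the list at E16.5 (quartiles 30.9% and 66.9%) and 54.5% at E18.5 (36.8% and 74.0%). Gene-end regions of all 3 stages had medians of 12.4% and 15.2% in those lists, regions of E16.5 alone 71.9% and regions of E18.5 alone 76.2%. With the later lists limited to their first 862 peaks, the length of the E13.5 list, 89 regions and 113 genes met the rule in place of 1321 and 1613. That setting kept the E13.5 list whole and dropped most later peaks. The fall therefore does not show what a longer E13.5 list would give. A site without CREB at E13.5 and a site missing from a shorter list cannot be told apart here.

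The 10 members earliest in the lists, by their mean position at the 2 stages, stood at 13 genes of unlike function. H2-Ab1 (region chr17:34262835-34263464) was in position 19 of the E16.5 list and 261 of the E18.5 list, with both midpoints 77.5 bp from the gene end. Mr1, a class I-like antigen-presenting molecule (chr1:155146552-155147181), stood in positions 144 and 415, and its midpoints lay 52.5 and 61.5 bp upstream of the start. Erg28, which acts in sterol synthesis, and Ttll5, a tubulin-modifying enzyme, share the region chr12:85824477-85825106 in positions 355 and 236. Nasp, a chaperone of linker and core histones (chr4:116627686-116628315), stood in positions 244 and 378. Cyp51 (chr5:4104218-4104847) stood in positions 233 and 449, and its midpoints lay 164.5 and 78.5 bp inside the gene. The others were Zfp619 (positions 285 and 310), BC051142 (169 and 430), Zscan21 (454 and 268), Sbds with Tyw1 (310 and 442), and H2bc9 with H3c7 (154 and 621). Sbds acts in the maturation of ribosomes. The position was the smaller number at E16.5 in these regions except those of Erg28 with Ttll5 and of Zscan21.

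Members were promoters in nearly every case where the strand was known. A promoter window gives the strand for a gene at 1138 of the 1321 regions, and 1115 of these (98.0%; 97.0 to 98.6) lay within 1000 bp of a start. The share was 99.1% for regions of all 3 stages, 96.8% for E16.5 alone and 96.4% for E18.5 alone, with intervals that overlap that of the members. The remaining 23 lay at the far end of the genes whose strand was known, among them the regions at Bad, a cell-death gene, and at Tspyl2. Some of the 23 also touch a gene of unknown strand, as the region between Nop53 and Ehd2 does, and may lie at its start. For 183 regions the strand was not known.

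CREB peaks lay just upstream of the start. With upstream distances negative, the E16.5 midpoint had a median of -76.5 bp (quartiles -169.5 and 3.5 bp), and the E18.5 midpoint a median of -88.5 bp with a lower quartile of -159.5 bp. Of the 1115 regions, 74.1% (71.4 to 76.6) had the E16.5 midpoint upstream and 78.5% (76.0 to 80.8) the E18.5 midpoint. The midpoint was within 250 bp of the start in 81.9% at E16.5 and 86.8% at E18.5. Regions of E16.5 alone were more scattered, with 73.3% within 250 bp.

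**Figure D2:**
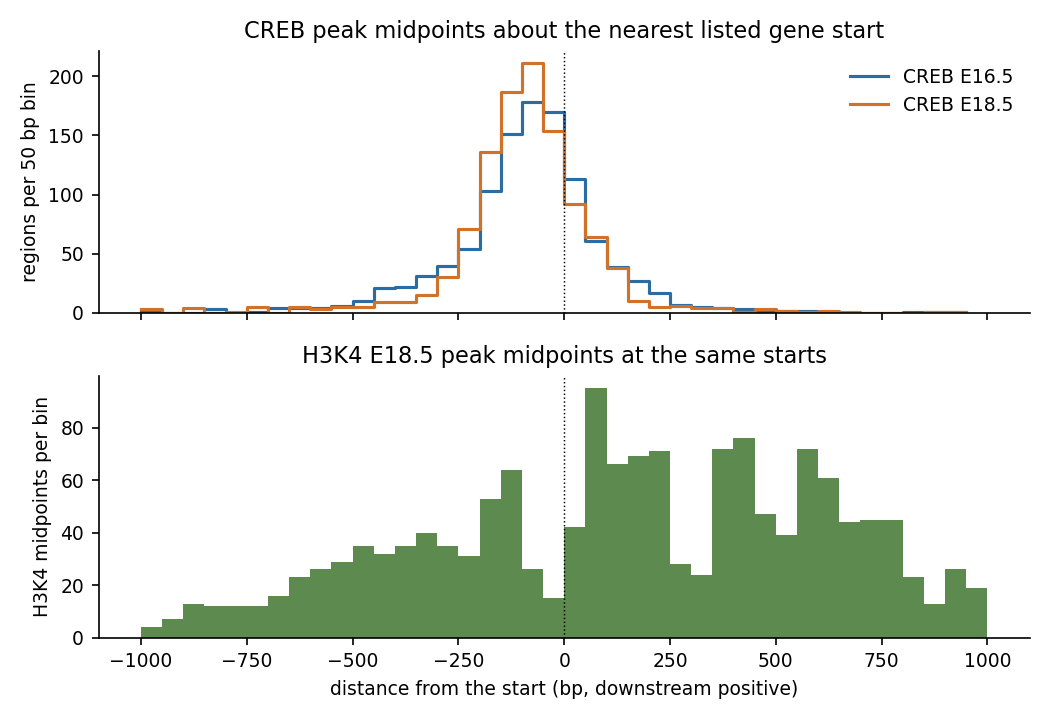
Distance in bp of CREB peak midpoints at E16.5 and E18.5 (upper panel) and of H3K4 peak midpoints at E18.5 (lower panel) from the nearest start, in bins of 50 bp, for the 1115 regions at a start. Both CREB lines are highest in the bin from 100 to 50 bp upstream, with 178 and 211 regions, whereas the H3K4 count falls to 15 in the last bin before the start and is highest, at 95, from 50 to 100 bp after it.

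The H3K4 mark lay beside the members, more often downstream than upstream of the E18.5 CREB midpoint where a start was known. An H3K4 midpoint was within 1000 bp of 1232 of the 1321 regions (93.3%; 91.8 to 94.5), beside 93.1% of all gene-end CREB regions. The other classes gave 95.7% (all 3 stages), 92.7% (E16.5 alone) and 90% (E18.5 alone). Regions of the same stage pattern away from gene ends, which are no members, had such a midpoint in 73.0% (67.4 to 77.9; 200 of 274). At the 1115 regions with a start, sides were taken about the E18.5 CREB midpoint and not about the start. A mark between that midpoint and a start downstream of it therefore counted as downstream. H3K4 midpoints stood on the downstream side only in 573 (51.4%) and on both sides in 302 (27.1%). They stood on the upstream side only in 167 (15.0%) and on neither within 1000 bp in 73 (6.55%). Among the 1613 member genes, 1531 (94.9%) had an H3K4 peak at an end, compared with 52.7% of protein-coding genes. Counted among the 11534 genes with such a peak, 13.3% had a member region.

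Members touched 2 or more genes in 22.5% of cases (20.3 to 24.8). The share was 29.7% (26.3 to 33.3) in regions of all 3 stages. It was 21.7% both in E16.5 alone (18.7 to 24.9) and in E18.5 alone (17.7 to 26.2). A single gene was touched by 1024 regions, 2 genes by 289 and 3 genes by 8. In the 226 pairs with both strands known, 170 were divergent (75.2%; 69.2 to 80.4), that is, transcribed away from each other, and 55 ran in the same direction. The divergent share was 81.9% in regions of all 3 stages, 70.5% in E16.5 alone and 68.9% in E18.5 alone, with overlapping intervals. The distance between the starts of a divergent pair, negative where the 2 genes overlap, had a median of 60 bp and was negative in 56 pairs. The earliest-listed pairs were Erg28 with Ttll5 (-200 bp), Snrpa with BC024978 (-490 bp), Utp18 with Mbtd1 (84 bp), Cep44 with Fbxo8 (278 bp), Spata2 with Rnf114 (-593 bp), and Ccdc189 with Rnf40 (32 bp). Utp18 acts in ribosome assembly and Mbtd1 in a histone acetyltransferase complex, so the 2 sides of a pair need not share a function. The region between Rps18, a ribosomal protein gene, and Vps52, a vesicle tethering gene, is another such case, in positions 643 and 747.

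Promoters of the member genes held the complete CRE in a larger share than promoters at large and in a smaller share than those with CREB at every stage. A promoter window was at hand for 1367 of the 1613 genes, and 121 of them held TGACGTCA, which is 8.85% (7.46 to 10.5), compared with 2.54% of all 17492 protein-coding genes with a window. The share was 14.5% (12.1 to 17.3) for genes with regions of all 3 stages and 10.7% (8.54 to 13.2) for those of E16.5 alone. It was 1.64% (0.753 to 3.53; 6 of 366) for genes of E18.5 alone and 0.774% for genes with H3K4 but no CREB region. The interval of the members overlaps that of E16.5 alone and lies apart from the other 3. Sequence was not used to choose the members.

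The gap between the members and the E18.5 class was also there when only promoter windows that the E18.5 peak overlapped were counted. There, 113 of 1105 member genes (10.2%; 8.58 to 12.2) and 1 of 281 genes of E18.5 alone (0.356%; 0.0628 to 1.99) held the complete element. With 1 mismatch allowed, 23.9% of member genes matched, beside 14.8% of all genes. Base composition was close in these classes, with a median GC content of 60.7% and 22 CpG sites per window in member genes and 61.7% and 21 in genes of E18.5 alone, compared with 56.3% and 13 in all genes.

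Shorter and unrelated promoter elements gave a measure of scale. The core TGACG or CGTCA, which is contained in the complete CRE, was found in 55.7% (53.1 to 58.4) of member genes and 26.2% of all genes. It stood in 72.1% of genes with all 3 stages, 53.1% with E16.5 alone and 37.2% (32.4 to 42.2) with E18.5 alone. Outside a complete CRE, 2 or more cores were found in 12.7% (11 to 14.5) of member genes, 24.7% (21.7 to 28.0) of genes with all 3 stages and 4.71% of all genes. The CCAAT box, CCAAT on either strand, was found in 53.2% of member genes and 42.3% of all genes. The GC box GGGCGG gave 72.2% and 49.2%, the ETS core CCGGAAG 22.6% and 12.9%, and the NRF1 core GCATGCGC 6.95% and 3.94%. Genes with H3K4 and no CREB region gave 69.2% for the GC box, 38.0% (36.8 to 39.2) for the CCAAT box and 18.3% (17.4 to 19.3) for the ETS core. For the NRF1 core they gave 5.87% (5.32 to 6.48), an interval that overlaps that of the members (5.72 to 8.42). All these shares rest on the same window search. These are matches of letters in a window on either strand, not shown binding sites.

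**Figure D3:**
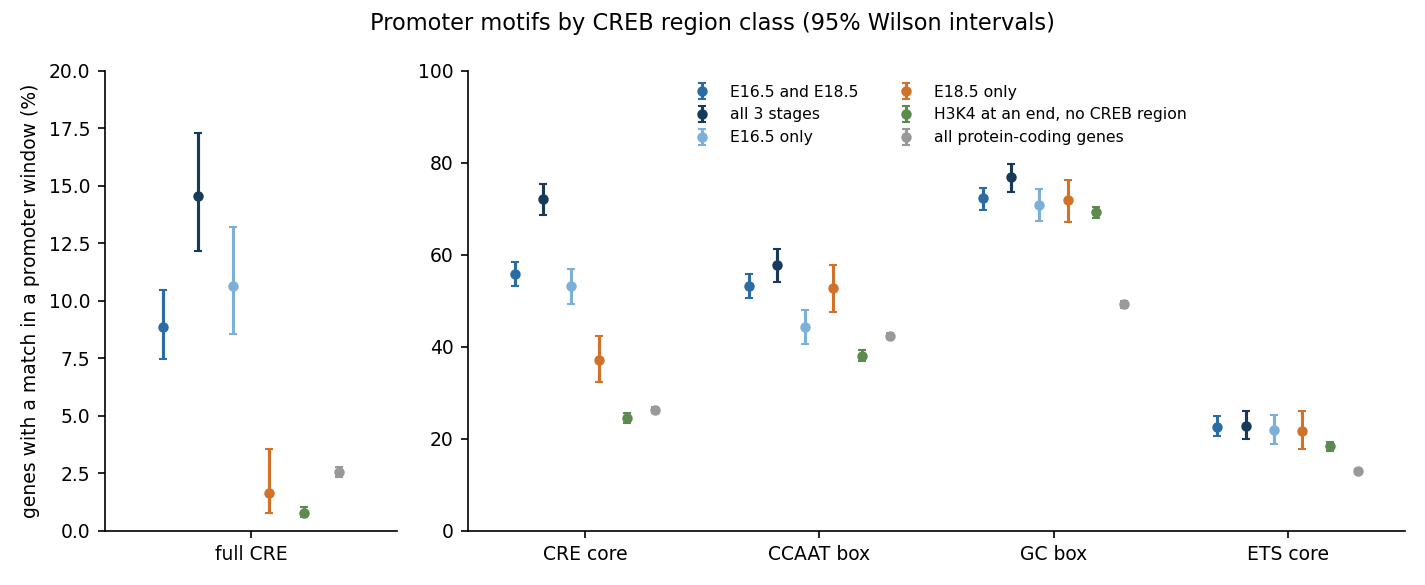
Percentage of genes whose promoter window held the complete CRE (left, axis to 20%) or another element (right, axis to 100%), by class of CREB region; points are shares and lines 95% Wilson intervals. For the complete CRE the members (8.85%) lie between all 3 stages (14.5%) and E18.5 alone (1.64%), while the GC box and ETS core shares of the 4 CREB classes lie close together.

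Within the member regions the complete CRE lay nearer to the E16.5 midpoint than to the E18.5 midpoint. Over 112 CREs inside the regions, the median distance was 32.5 bp at E16.5 (quartiles 11 and 71.75 bp) and 66.5 bp at E18.5 (32 and 102 bp). Within 50 bp lay 63.4% (54.2 to 71.7) at E16.5 and 41.1% (32.4 to 50.3) at E18.5. The E16.5 midpoint was the nearer for 80 matches, the E18.5 midpoint for 30, and 2 were equal. At Tyw1 the CRE centre was 2 bp from the E16.5 and 44 bp from the E18.5 midpoint, at Mcm5 3 and 68 bp, at Snrpa 11 and 121 bp, at Rpl27a 11 and 60 bp, at Btg2 23 and 82 bp and at Hlf 6 and 19 bp. The distances were nearly equal at Celf6 (13 and 15 bp) and Rpl13 (17 and 18 bp). At Zfp868 (128 and 327 bp) and Nr6a1 (171 and 181 bp) neither midpoint was close.

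The GC and CCAAT boxes did not show the same order, whereas the core, counted with the complete CREs, did. GC boxes lay a median of 103 bp from the E16.5 midpoint and 92 bp from the E18.5 midpoint, and 43.2% (41.0 to 45.5) of 1899 were nearer the former. CCAAT boxes lay 67.5 and 62.5 bp away, with 45.4% (42.4 to 48.4) nearer the E16.5 midpoint. Core matches, complete CREs included, lay 53.5 and 72.5 bp away, with 57.0% (53.9 to 60.1) of 963 nearer the E16.5 midpoint. A complete CRE holds the core on each strand, so the core is no separate observation from it. Cores outside a complete CRE were not set apart in these distances. Regions of all 3 stages gave the same order for the complete CRE as the members, with medians of 75, 41 and 70 bp in order of stage over 87 matches, so it is not particular to the members. Each stage is 1 library with its own peak width, and the part of library or width in these distances was not tested.

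**Figure D4:**
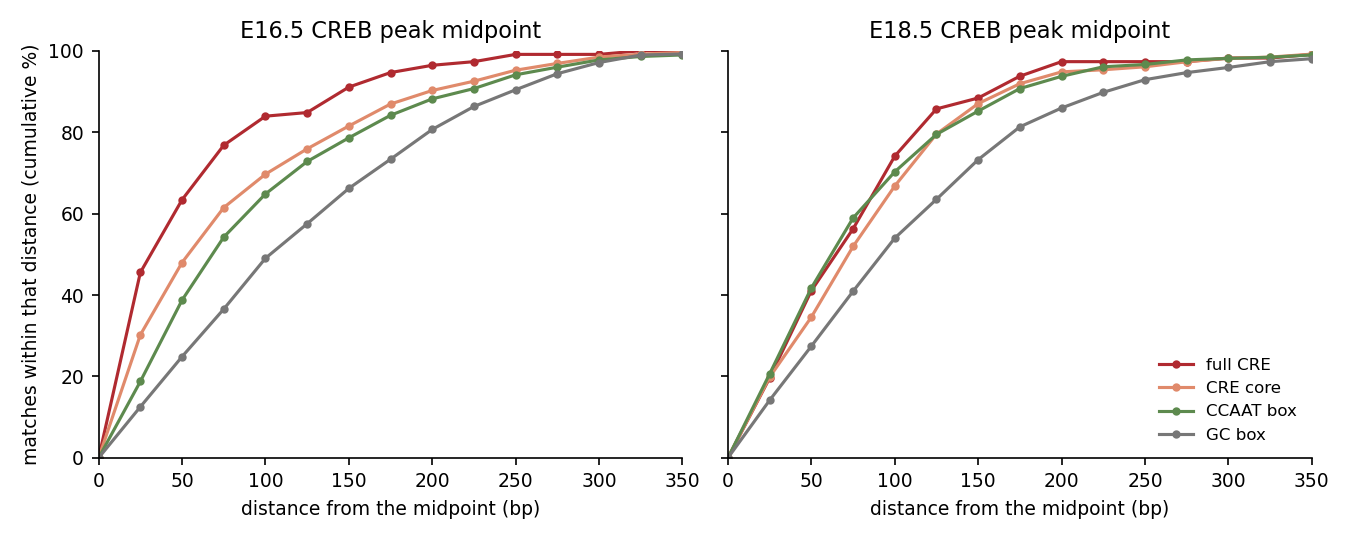
Cumulative percentage of motif matches inside the member regions by distance in bp from the CREB peak midpoint, at E16.5 (left) and E18.5 (right), for the complete CRE, its core, the CCAAT box and the GC box. At E16.5 the complete CRE curve rises first, with 63.4% of matches within 50 bp, whereas at E18.5 it reaches 41.1% there and runs with the CCAAT box curve.

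The complete CRE also went with an earlier place in the E16.5 list, but not in the E18.5 list. The 114 regions at a gene with the complete CRE had a median position of 28.6% of the E16.5 list (quartiles 18.1% and 43.2%). The 572 regions with the core alone had 46.4% (29.9% and 66.4%), and the 452 regions with neither 53.7% (39.1% and 71.9%). In the E18.5 list the 3 medians were 58.7%, 54.0% and 53.6%. Ordered by the mean of both positions and divided into 4 groups of 330 or 331 regions, the share of genes with the complete CRE was 13.1% (9.95 to 17.1), 12.1%, 8.04% and 2% (0.972 to 4.07). The H3K4 share did not fall along the same order, with 95.2%, 91.2%, 92.4% and 94.3%. Positions were part of neither the rule nor the motif search, and this description rests on 1 library per stage.

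CREB pathway genes were among the members, beside 7.37% of all protein-coding genes and 13.3% of those with H3K4. Of 33 genes listed as cAMP-induced CREB targets, 5 had a member region (15.2%; 6.65 to 30.9), and these were Crem, Btg2, Rgs2, Per2 and Irs2, which all had H3K4 at an end (5 of 22 such genes, 22.7%; 10.1 to 43.4). Crem, which encodes activator and repressor relatives of CREB, had the earliest region of the 5, in positions 543 at E16.5 and 650 at E18.5. Btg2 stood in positions 1831 and 1848, Rgs2 in 2711 and 1557, the clock repressor Per2 in 1773 and 2717, and Irs2, an insulin signalling adaptor, in 2378 and 2749. In the same list, 8 genes had a region of all 3 stages. Of 25 genes for the CREB family, its coactivators and protein kinase A, the members were Crem, Prkaca (positions 1069 and 820) and Creb1 (2709 and 2126), which is 12% (4.17 to 29.96). Of the 23 genes of this list with H3K4 at an end, 3 were members, with an interval of 4.54 to 32.1. For both lists, the intervals include 7.37% over all genes and 13.3% among genes with H3K4. The Creb1 midpoints lay 121.5 and 100.5 bp downstream of its start.

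Counted over all genes of a list, ribosomal protein and splicing genes held the largest shares among the 40 lists. Beside them stand 7.37% of all protein-coding genes and 13.3% of those with H3K4. Ribosomal protein genes had a member region in 24 of 83 (28.9%; 20.3 to 39.4), the earliest being Rpl13 (positions 584 and 664), Rps18 (643 and 747), Rps19 (763 and 640), Rpl27a (819 and 657), Rpl29 (708 and 853) and Rps3 (1175 and 460). Splicing factor and hnRNP genes had one in 19 of 66 (28.8%; 19.3 to 40.6), led by Snrpa (444 and 382), Hnrnpul1 (479 and 817) and Hnrnpa3 (745 and 566). Of the splicing member genes with a window, 15 of 18 held the core and 2, Snrpa and Snrpg, the complete CRE. RNA helicases of the Ddx and Dhx families counted 11 of 53 (20.8%; 12 to 33.5), with Ddx10 and Ddx51 first. Among genes with H3K4 at an end, ribosomal protein genes counted 24 of 74 (32.4%; 22.9 to 43.7) and splicing genes 17 of 58 (29.3%; 19.2 to 42.0). On that count replication-dependent histone genes stood higher, with 12 of 27 (44.4%; 27.6 to 62.7). RNA polymerase and Mediator genes counted 10 of 58, with Med21, Polr3d and Med19 first. Lists by symbol pattern take in loosely related symbols, such as Rab11fip3 among the Rab genes.

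Cholesterol, stress, clock and autophagy genes had shares of 20% or more in lists of 30 genes or fewer. Beside them stand 7.37% of all protein-coding genes and 13.3% of those with H3K4. Of 24 genes of cholesterol synthesis and uptake, 6 had a member region (25%; 12 to 44.9), among them Cyp51, the mevalonate kinase Mvk (positions 443 and 737), the sterol sensor Insig1 (848 and 1221), Msmo1 (2173 and 1123) and Fdps (2468 and 1323). In the same list, 6 genes had a region of all 3 stages. Of 20 unfolded protein response genes, 4 were members (20%; 8.07 to 41.6), and these were Xbp1 (697 and 559), the chaperone Canx (920 and 1126), Syvn1 (1771 and 2119) and Sel1l (3399 and 2331), the last 2 acting together in degradation of misfolded proteins. Of 19 clock genes, Dbp (2170 and 1227), Hlf (1844 and 1831), Per2 and the repressor Cry1 (2736 and 2019) were members (21.1%; 8.51 to 43.3). Of 30 autophagy genes, 8 were members (26.7%; 14.2 to 44.4), with Atg12, Becn1 and Gabarapl1 first. In the unfolded protein response list, 5 genes had a region of all 3 stages and 5 a region of E18.5 alone. Among genes with H3K4 at an end, the cholesterol list counted 6 of 22 and the unfolded protein response list 4 of 18. The clock list counted 3 of 14 there and the autophagy list 7 of 27. The intervals of these 4 shares all include the 13.3%.

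Cell division and DNA genes were spread over the lists, beside 7.37% of all protein-coding genes and 13.3% of those with H3K4. Of 28 cell cycle genes, 6 were members (21.4%; 10.2 to 39.5), namely the helicase subunits Mcm4 (409 and 414), Mcm5 (586 and 707) and Mcm2 (2348 and 2005), the transcription factors E2f3 (1765 and 1279) and E2f1 (2527 and 1802), and the mitotic kinase Aurkb (2149 and 2767). No H3K4 peak lay at an end of E2f3 or Mcm2. Of 41 DNA repair genes, 7 were members (17.1%; 8.53 to 31.3), with Pms2, Atm and Mre11a first. Among genes with H3K4 at an end, the cell cycle list counted 4 of 22 (18.2%; 7.31 to 38.5). The DNA repair list counted 7 of 36 there (19.4%; 9.75 to 35.0), and both intervals include 13.3%. Replication-dependent histone genes counted 13 of 72 (18.1%; 10.9 to 28.5) and 12 of the 27 with H3K4 (44.4%; 27.6 to 62.7). Such genes lie in clusters and share regions, as H2ac13 and H2bc13 do (509 and 1441), so they are not independent counts, and copies of nearly the same sequence can share reads.

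Zinc finger genes of the Zfp series counted 44 of 397 (11.1%; 8.36 to 14.6), beside 7.37% of all protein-coding genes. Among those with H3K4 at an end they counted 42 of 296 (14.2%; 10.7 to 18.6), near the 13.3% of all such genes. On chromosome 13, 11 of 37 were members (29.7%), beside 8.32% of all genes there and 15.0% of those there with H3K4. The earliest on it were Zfp273 (141 and 758), Zfp729b (161 and 860) and Zfp87 (240 and 877). Chromosome 7 gave 11 of 93 and chromosome 12 gave 3 of 6, beside 7.98% and 9.72% of all genes there. No Zfp member lay on chromosomes 2, 4 or 11, with 27, 27 and 21 such genes. Of all genes on those chromosomes, 5.67%, 7.45% and 8.83% were members. The Zfp counts by chromosome take in genes without H3K4, unlike the 15.0%, and no interval was calculated for them. Of the Zfp member genes with a window, 5 of 34 held the complete CRE, among them Zfp868 and Zfp426. Rab GTPase genes counted 13 of 69 (18.8%; 11.4 to 29.6). Genes of mitochondria and of protein breakdown had smaller shares than ribosomal protein genes. Nduf genes of NADH dehydrogenase counted 7 of 49 (14.3%), mitochondrial ribosomal proteins 7 of 77 (9.09%) and the proteasome 4 of 51 (7.84%). Slc25 carriers counted 3 of 47 (6.38%), and cytochrome oxidase and ATP synthase genes 2 of 44 (4.55%). For each of these lists of mitochondria and protein breakdown, the interval includes the 7.37% of all protein-coding genes.

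**Figure D5:**
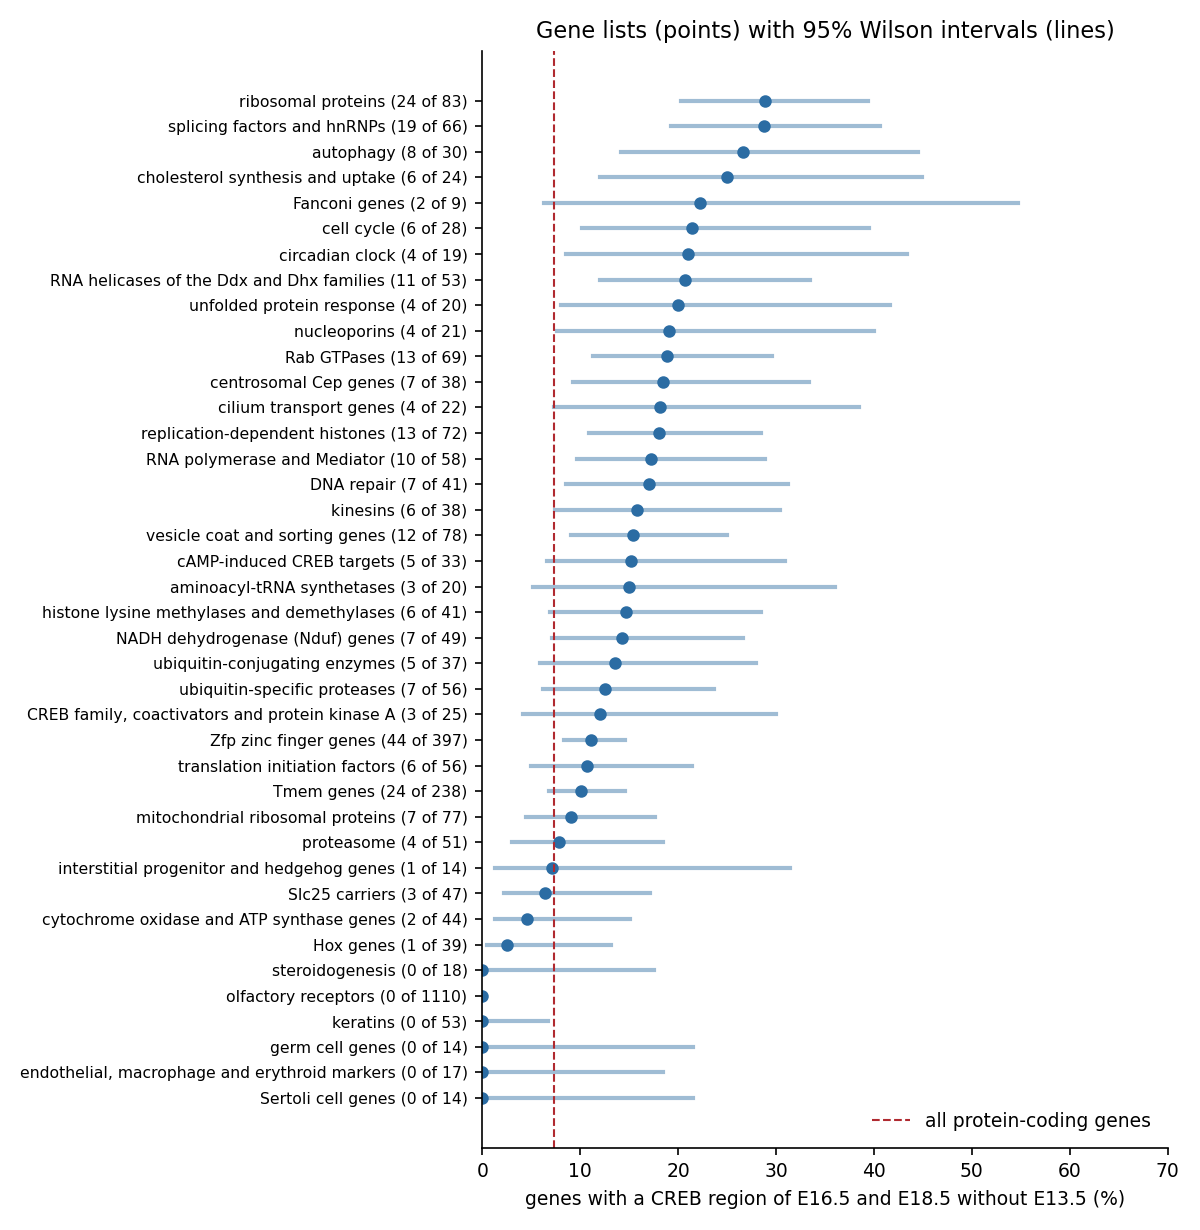
Percentage of the genes of each of 40 lists that had a CREB region of E16.5 and E18.5 without E13.5 at an end (points), with 95% Wilson intervals (lines) and the share of all protein-coding genes, 7.37% (dashed line). Ribosomal protein genes (28.9%) and splicing genes (28.8%) stand at the top, and 6 lists, among them the Sertoli, germ cell and steroidogenesis lists, have no member.

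The genes that mark the cell types of the testis had 1 member, in lists so short that each upper limit includes the 7.37% of all protein-coding genes. None of 18 steroidogenesis genes (upper limit 17.6%), 14 Sertoli cell genes (21.5%), 14 germ cell genes (21.5%) and 17 endothelial, macrophage and erythroid markers (18.4%) had a member region. In the steroidogenesis list 1 gene had a region of all 3 stages and 1 a region of E16.5 alone. The 1 member among 14 interstitial progenitor and hedgehog genes was Gli1, a hedgehog target, in positions 674 and 1716. Star, Cyp11a1 and Nr5a1 of the steroid pathway and the Sertoli genes Sox9 and Amh had an H3K4 peak at an end and no member region, and the Leydig hormone gene Insl3 and the germ cell gene Ddx4 had neither. In all, 8 of the 14 Sertoli genes, 9 of the 18 steroidogenesis genes, 2 of the 14 germ cell genes and 4 of the 17 endothelial, macrophage and erythroid markers had H3K4 at an end. None of 1110 olfactory receptor genes or 53 keratin genes was a member, and 1 of 39 Hox genes was, Hoxc6 (1413 and 1969). Hoxc6 was likewise no member with a window of 500 bp or with peaks of 150 bp. Peak presence does not tell how many cells of the mixture carried it.

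Along the chromosomes, the share of genes with a member region was highest on chromosomes 19 (10.5%; 8.44 to 12.98), 8 (10.3%; 8.56 to 12.2) and 12 (9.72%; 7.71 to 12.2), and lower on chromosome 14 (5.17%; 3.87 to 6.87) and X (4.24%; 3.14 to 5.71). The share of all protein-coding genes was 7.37%. X also had the smallest share of genes with a region of all 3 stages apart from Y (1.35%). Its low share is thus not particular to the members. Counted among genes with H3K4, chromosome 19 gave 18.2% (14.7 to 22.2), chromosome 7 17.8% (15.4 to 20.5) and X 10.1% (7.51 to 13.46). The interval of X includes the 13.3% of all such genes. Chromosomes 15 (42 of 442 genes) and 18 (29 of 301) gave smaller shares there than X. The only member on Y was Eif2s3y, a translation initiation factor gene, in positions 1628 and 2803. Member genes had a median length of 18817 bp, compared with 17169 bp for all protein-coding genes.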

How the data were processed

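CUT&RUN libraries of fetal mouse testis took their antibody and stage from the titles. The deposited files are lists of peak positions (chromosome, start and end, mm10), with no score, count or signal. Per the submitters' processing notes, Trim Galore 0.6.10, Bowtie2 2.5.2, MACS2 and mm10 were used; settings, and any use of the IgG library, were not given in these sources. Peaks on unplaced scaffolds (28, 2, 10 and 9) entered list positions only. Gene ends came from a RefSeq table of GRCm38.p6 and starts, strands and sequences from RefSeq promoter windows, matched by gene identifier for 17492 of 21887 genes. Positions are 1-based. No test between libraries was possible with 1 library each, and no p-value is given. The members and the gene lists (14 by symbol, 26 by pattern) were chosen with earlier results of these data known. Named are the genes of the 10 earliest members, up to 6 of each list, 18 fixed genes, the 12 earliest with a CRE, 6 divergent pairs, the 5 widest regions and the 3 on each side of each limit; chromosome 18 was left out of the printed sequences, and a gene that this rule names is not reported here. The comparisons of motif distance, of list position by motif and of Zfp genes by chromosome were added after seeing the data. Code was tested on simulated data, in Python 3.11.15 with numpy 2.4.6, scipy 1.17.1 and matplotlib 3.10.9.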

Additional observations from a re-analysis of the deposited data

How the results depend on the processing

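Gene-end windows of 500 and 2500 bp, an overlap of at least 0.5 of the narrower peak, no E13.5 midpoint within 1000 bp and a common peak width of 150 bp gave between 1152 and 1380 member regions and between 1409 and 1779 genes, all within 1.5 times the reported counts. Taking only as many first peaks of each list as E13.5 holds gave 89 regions, 113 genes and 32 listed genes in place of 286. For the H3K4 mark, 78.0% of the regions had a midpoint within 500 bp, and 71.5% overlapped a peak. A start lay within 500 bp in 96.7%. With 1 mismatch the CRE share was 23.9% and with its core alone 55.7%. Counts stayed within 1.5 times for 38 of 40 lists or more, except with first peaks (6 of 40). No paired analysis was possible because each antibody and stage has 1 library. With the read depth unknown, a missing peak does not show that CREB was absent.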
